A study of Mus musculus with 4 samples.

Results

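The fibroblast growth factor (FGF) genes of sorted ID4-EGFP+ spermatogonia were examined: the secreted and intracellular FGFs, the receptors *Fgfr1* to *Fgfr4* and *Fgfrl1*, the klotho co-receptors and FGF-binding proteins, the FRS adaptors, the Sprouty and SPRED inhibitors with *Il17rd*, and the ETS factors *Etv1* and *Etv4*. Members were chosen by gene symbol, and 42 of the 54920 genes listed in the files matched. Of these, 28 were expressed highly enough to be tested, among 23952 genes tested. The libraries came from ID4-EGFP+ cells sorted from testes at postnatal day 8 (P8), with 2 control and 2 *Cnot3*-cKO libraries. Controls were *Cnot3* flox/flox; *Id4-eGfp* mice without Cre, which the labels call wild-type. *Cnot3*-cKO mice were *Cnot3* flox/flox; *Ddx4-creER*; *Id4-eGfp*, in which a tamoxifen-inducible Cre is expressed from the germ cell gene *Ddx4*, which directs the deletion to germ cells. Both groups carried the floxed allele and the reporter and received 4-OHT injections from P1 to P3. The study describes its replicates as biological and gives a higher number of them per group than the libraries analysed here. The labels do not say which mice, or how many, gave each library, so the p-values measure only the spread between these libraries, part of which may be technical.

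Secreted FGFs bind receptor tyrosine kinases together with heparan sulfate, and the activated receptor signals through the adaptors FRS2 and FRS3 to RAS and ERK. ERK activity raises transcription of *Spry*, *Spred*, *Dusp6* and ETS genes such as *Etv4* and *Etv5*, and the Sprouty, SPRED and DUSP6 proteins damp the same pathway. FGF2 is used with GDNF to keep mouse spermatogonial stem cells self-renewing in culture, and *Etv5* is required to maintain these cells in the testis.

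Library totals ranged from 22192964 to 43378493 reads, and both *Cnot3*-cKO libraries were smaller than both controls. *Cnot3*, the deleted gene, was at 58.6 and 50.2 CPM (counts per 1000000 reads) in the controls and at 19.2 and 19.9 CPM in the *Cnot3*-cKO libraries, a log2 fold change of -1.48 (SE 0.13, adjusted p = 1.48e-05). Summed CPM of 12 pan-germ cell genes lay between 5570 and 6422 in the 4 libraries. Markers of somatic testis cells were also present, and 15 of 16 Sertoli cell genes, 5 of 6 tested Leydig cell genes, 8 of 9 macrophage genes and 2 of 5 tested endothelial genes were called higher in the *Cnot3*-cKO libraries. Of 7 interstitial mesenchyme and 7 peritubular myoid genes, edgeR called 0. However, 4 and 1 of them rose at an adjusted p under 0.05 (57.1% and 14.3%, against 11.1% of all tested genes). No further gene of these lists had an unadjusted p under 0.05. Among 11 spermatogonial stem cell genes 2 were called higher, whereas 5 of 7 progenitor and 4 of 7 differentiating spermatogonia genes were called lower. In such bulk libraries, fewer cells of a type and less RNA per cell cannot be told apart. Throughout, an adjusted p is that of the quasi-likelihood test of edgeR, adjusted by Benjamini-Hochberg over all tested genes, a gene is "called" at an adjusted p under 0.01 with a fold change above 2, and fold changes are *Cnot3*-cKO over control.

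Of the 28 tested FGF genes, 3 were called. *Fgf9* and *Spred3* were called higher (2 of 28, or 7.14%, against 4.03% of all tested genes) and *Fgfr1* was called lower (1 of 28, or 3.57%, against 0.735%). At an adjusted p under 0.05 without a fold limit, 6 members rose (*Kl*, *Spred3*, *Fgf9*, *Etv1*, *Spry4* and *Etv4*), or 21.4% against 11.1% of all tested genes. *Kl* entered the test only through its *Cnot3*-cKO libraries and had to differ, and without it 5 of 27 members rose (18.5%). By the same measure 3 members fell (*Fgfr1*, *Fgfr3* and *Fgfrl1*), or 10.7% against 9.46%. The share that fell was thus near the background. The members' log2 fold changes ran from -1.54 to 2.92 (to 1.52 without *Kl*). Their median was 0.20 (0.16 without *Kl*), against a median of 0.01 over all tested genes. The control and *Cnot3*-cKO values did not overlap for 23 members, or 82.1% (81.5% without *Kl*), against 59.1% of all tested genes. The *Cnot3*-cKO libraries were above the controls for 15 of the 23 and below them for 8. Of these 15, *Fgf1* and *Fgf18* also needed their *Cnot3*-cKO libraries to pass the expression filter. The filter asked for 0.29 CPM in 2 libraries, and in control replicate 2 they were at 0.0951 and 0.143 CPM. Their place above the controls, and in the median, was thus favored by the filter. For any gene on its own, the smallest two-sided p of an exact permutation test over 2 and 2 libraries is 0.333, so the calls rest on the fit across genes. Exons of 8 tested members (*Fgf2*, *Fgf22*, *Fgfr1*, *Fgfr2*, *Fgfr3*, *Frs3*, *Spred3* and *Spry1*) overlap another annotated gene, and since the strand setting of the counting is not given in the sources used here, reads of such neighbors may not be separated.

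**Figure D1:**
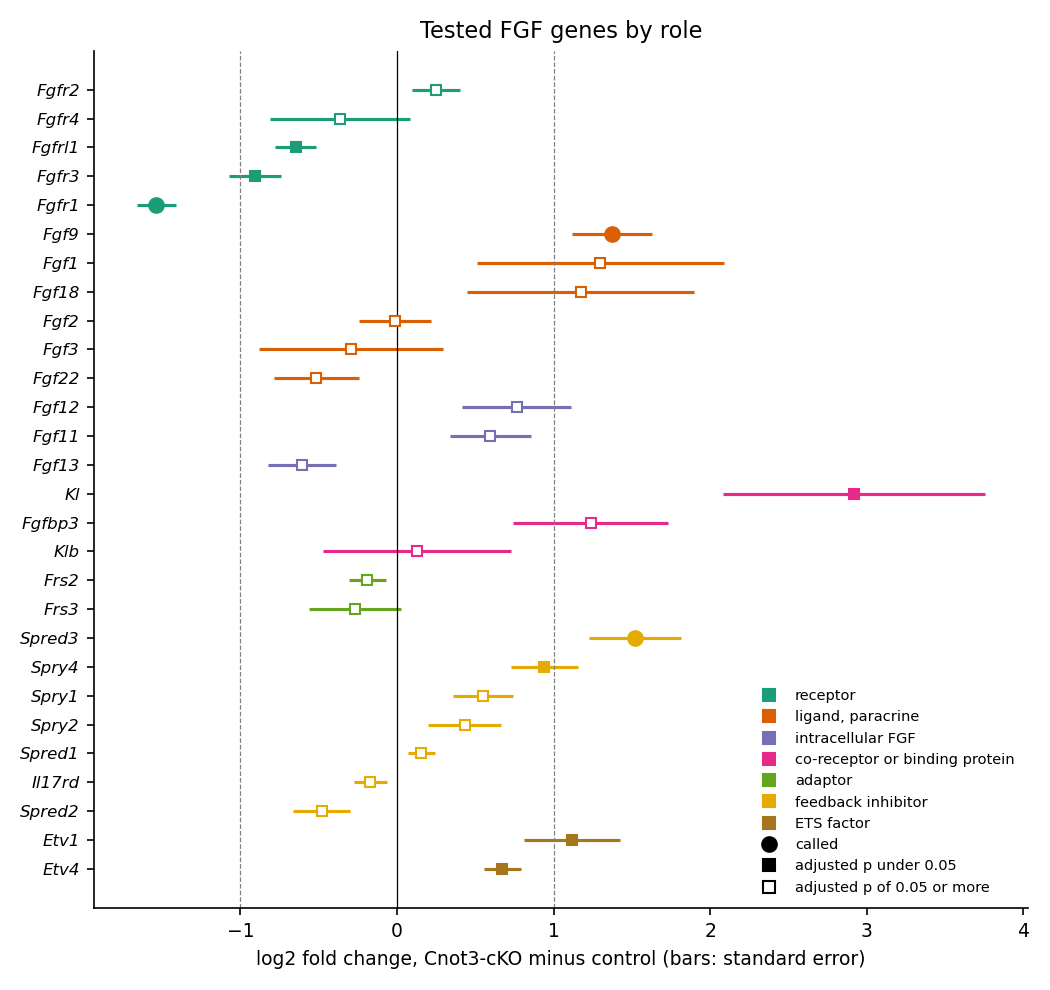
Log2 fold change of *Cnot3*-cKO over control for the 28 tested FGF genes, grouped by role. Points are estimates of the edgeR fit with bars of 1 standard error, circles are called genes, filled squares have an adjusted p under 0.05 and open squares do not, and dashed lines mark a 2-fold change; *Fgfr1* lies at -1.54, while *Fgf9* and *Spred3* lie at 1.38 and 1.52, and *Kl*, at 2.92, has the widest bar.

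Among the receptors, *Fgfr1* had the largest decrease. *Fgfr1* encodes a receptor tyrosine kinase for many FGFs and lies on the forward strand at chr8:25513654-25575718 (GRCm38). It was at 50.8 and 50.7 CPM in the controls and at 18.0 and 17.0 CPM in the *Cnot3*-cKO libraries, from 2045, 2131, 407 and 486 reads. The means were 50.7 ± 0.0878 and 17.5 ± 0.704 CPM (SD, n = 2 each). Both *Cnot3*-cKO libraries were thus well below both controls, and the level fell 2.90-fold (log2 fold change -1.54, SE 0.12, adjusted p = 7.89e-06). *Fgfr1* shares exon positions with the antisense gene *Gm16159*, which had 49, 22, 7 and 5 reads in the same order of libraries. These antisense counts are small beside those of *Fgfr1*.

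*Fgfr3*, a second FGF receptor kinase (chr5:33721674-33737068, forward strand), was at 20.5 and 25.5 CPM in the controls and at 11.7 and 12.8 CPM in the *Cnot3*-cKO libraries. The groups did not overlap, and *Fgfr3* fell by 0.91 on the log2 scale (SE 0.17, adjusted p = 0.00244), short of the 2-fold limit. Without control replicate 1 it fell by 1.07 and was called. Its antisense neighbor *G630022F23Rik* had 39, 40, 2 and 18 reads against 826, 1074, 266 and 367 for *Fgfr3*. *Fgfrl1*, which encodes an FGF-binding receptor without a kinase domain (chr5:108692382-108706924, forward strand), was at 35.5 and 38.1 CPM against 22.0 and 25.0 CPM. It fell by 0.65 on the log2 scale (SE 0.13, adjusted p = 0.00459), again with no overlap between groups.

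*Fgfr2* and *Fgfr4* did not pass the test. *Fgfr2* was at 15.7 and 15.3 CPM in the controls and at 19.0 and 17.9 CPM in the *Cnot3*-cKO libraries (log2 fold change 0.25, SE 0.15, adjusted p = 0.288). Its annotated exons include a transcript that runs into *Ctbp2*, so that reads of the 2 genes may not be fully separated. *Fgfr4* was scarce, between 0.873 and 1.27 CPM in the 4 libraries (log2 fold change -0.36, SE 0.45, adjusted p = 0.639).

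The make-up of receptor transcripts differed between the groups of libraries. On a per-length scale (RPKM, the CPM divided by the kilobases of annotated exon), the 4 receptor kinases summed to 9.89 and 10.5 RPKM in the controls and to 5.60 and 5.49 RPKM in the *Cnot3*-cKO libraries. *Fgfr1* gave 52.0% and 48.8% of this sum in the controls and 32.5% and 31.3% in the *Cnot3*-cKO libraries. *Fgfr2* gave 15.4% and 14.1% against 32.9% and 31.6%, and *Fgfr3* gave 29.0% and 33.9% against 29.3% and 32.6%. *Fgfr1* was therefore the leading receptor kinase transcript in both controls, and *Fgfr1*, *Fgfr2* and *Fgfr3* stood at similar levels, from 1.64 to 1.84 RPKM, in both *Cnot3*-cKO libraries. The order in the latter depended on the gene length used. With the length of each gene's longest principal transcript instead, a choice made after the values were seen, *Fgfr2* gave 46.2% and 44.7% in the *Cnot3*-cKO libraries and 23.6% and 21.8% in the controls, while *Fgfr1* gave 28.9% and 28.1% against 50.4% and 47.9%. *Fgfr1* led in both controls by either length, and its share was lower in both *Cnot3*-cKO libraries. These shares follow from the fold changes above and were given no test of their own. The part of the cell make-up in these shares, and in the *Fgfr3* and *Fgfrl1* values, was not tested.

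**Figure D2:**
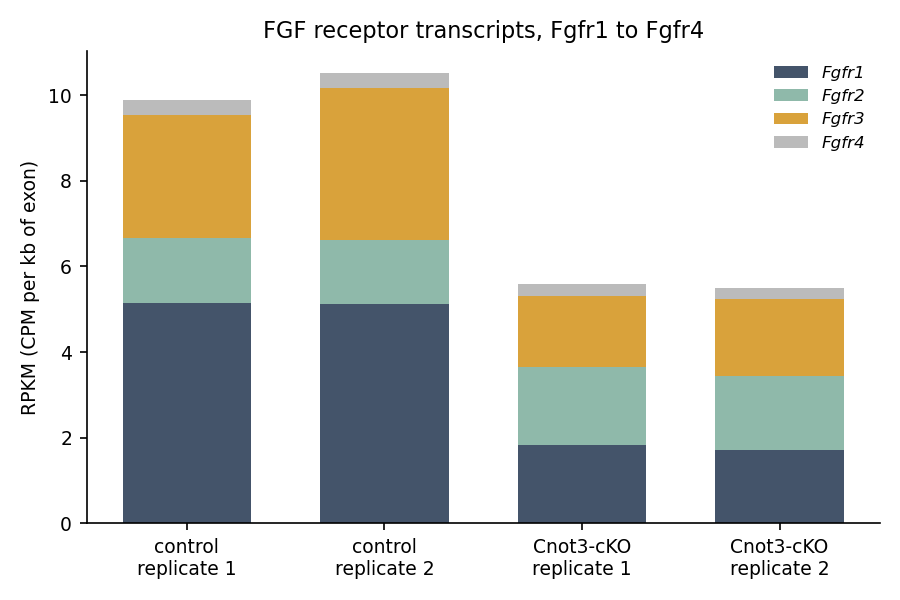
Levels of *Fgfr1* to *Fgfr4* in each library, stacked, in RPKM (CPM per kilobase of annotated exon). *Fgfr1*, at the base of each bar, stands at 5.14 and 5.13 RPKM in the controls and at 1.82 and 1.72 RPKM in the *Cnot3*-cKO libraries, where *Fgfr2* and *Fgfr3* have segments of similar height.

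Genes of progenitor and differentiating spermatogonia fell along with *Fgfr1*. The summed CPM of the 7 progenitor genes was 559 and 561 in the controls and 280 and 273 in the *Cnot3*-cKO libraries, and that of the 7 differentiating genes was 610 and 734 against 367 and 409. Per 1000 CPM of both lists together, *Fgfr1* was at 43.4 and 39.1 CPM in the controls and at 27.8 and 24.9 CPM in the *Cnot3*-cKO libraries. Per 1000 CPM of the pan-germ cell list it was at 8.56 and 7.89 against 3.23 and 2.92 CPM. The fold between control and *Cnot3*-cKO means, 2.90 in CPM, was thus 1.57 against the progenitor and differentiating genes and 2.68 against the pan-germ cell genes. Such sums weigh abundant genes most, as *Lin28a*, at 420 and 409 CPM in the controls. Single progenitor and differentiating genes fell by 1.13-fold (*Sohlh1*) to 3.78-fold (*Prss50*), with *Neurog3* at 3.51-fold. The value of 1.57 therefore does not show that *Fgfr1* fell more than each of them. The part of the cell make-up in the *Fgfr1* values was not tested.

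Promoter sequences of *Fgfr3* and *Fgfrl1* are shown because both genes fell and lie on the same chromosome. RefSeq windows (GRCm38.p6) of 300 bases, 250 before and 50 from the transcript start, were searched on both strands for the ETS core CCGGAAG, the GC box GGGCGG and TATAAA; capitals mark ETS cores and GC boxes. Members without a window were *Fgfr1*, *Etv4*, *Spry4*, *Fgf1*, *Fgf8*, *Fgf15*, *Fgf16*, *Fgf17* and *Fgf20*. *Fgfr3* had 2 start sites, with windows at chr5:33721474-33721773 and chr5:33722056-33722355. *Fgfrl1* had 1 start site, with its window at chr5:108693979-108694278. All were on the forward strand.
Fgfr3, first start: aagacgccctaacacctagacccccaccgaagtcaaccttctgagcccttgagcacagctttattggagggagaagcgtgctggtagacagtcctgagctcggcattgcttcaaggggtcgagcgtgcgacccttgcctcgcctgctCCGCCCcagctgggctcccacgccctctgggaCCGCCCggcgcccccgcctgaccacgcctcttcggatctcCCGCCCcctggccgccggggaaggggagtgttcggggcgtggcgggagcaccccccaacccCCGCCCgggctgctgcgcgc
Fgfr3, second start: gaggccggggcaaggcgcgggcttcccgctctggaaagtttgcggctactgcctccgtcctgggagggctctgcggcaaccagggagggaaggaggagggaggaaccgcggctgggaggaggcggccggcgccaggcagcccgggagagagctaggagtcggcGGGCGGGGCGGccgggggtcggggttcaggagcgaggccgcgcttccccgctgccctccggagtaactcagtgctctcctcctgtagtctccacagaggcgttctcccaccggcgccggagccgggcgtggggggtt
Fgfrl1: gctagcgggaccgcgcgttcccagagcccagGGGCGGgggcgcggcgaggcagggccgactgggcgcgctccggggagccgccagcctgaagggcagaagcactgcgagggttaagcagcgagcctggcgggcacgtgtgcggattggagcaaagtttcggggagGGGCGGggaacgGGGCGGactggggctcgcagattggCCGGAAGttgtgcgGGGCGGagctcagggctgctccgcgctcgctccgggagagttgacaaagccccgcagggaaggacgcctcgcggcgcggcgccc
These windows were rich in G and C, at 69.7%, 73.0% and 73.7%, against a median of 52.7% over all windows. They held 4, 2 and 4 GC boxes. *Fgfrl1* also had an ETS core 48 bases before its start. Among the members, 2 of 41 windows held an ETS core (4.88%, in *Fgfrl1* and *Frs2*) against 8.86% of all 32851 windows, and 6 of 41 held TATAAA (14.6% against 13.6%). The GC box was found in 26 of 41 member windows (63.4%) against 35.7% of all windows. The letters alone do not show that a factor binds there.

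Of the 6 paracrine FGF ligands that could be tested, *Fgf9* was the one that rose. *Fgf9*, a secreted FGF required for testis formation in the embryo (chr14:58070547-58112720, forward strand), was at 2.53 and 2.19 CPM in the controls and at 6.18 and 6.08 CPM in the *Cnot3*-cKO libraries, from 102, 92, 140 and 174 reads. Both *Cnot3*-cKO libraries were above both controls. The means were 2.36 ± 0.245 and 6.13 ± 0.0736 CPM (SD, n = 2 each), a 2.59-fold increase (log2 fold change 1.38, SE 0.26, adjusted p = 0.00255). Summed CPM of the 16 Sertoli cell genes went from 431 and 441 in the controls to 1335 and 1315 in the *Cnot3*-cKO libraries (3.04-fold), with 15 of the 16 called higher. Per 1000 CPM of Sertoli cell genes, *Fgf9* was at 5.88 and 4.96 CPM in the controls and at 4.63 and 4.62 CPM in the *Cnot3*-cKO libraries, so that it was not higher relative to this list. None of the 16 Sertoli genes was at 0 in every library, and their part in the *Fgf9* increase was not tested. The *Fgf9* promoter window (chr14:58072436-58072735, forward strand) is shown as that of the called ligand and had 42.7% G and C, no GC box and no ETS core. The *Fgfr2* window was similar, with 43.7% G and C, no GC box and no ETS core. Windows rich in G and C also belonged to *Spred1* (72.3%, 3 GC boxes) and *Frs3* (76.7%, 5 GC boxes), which did not pass the test. A link between base composition and fold change was not tested.
Fgf9: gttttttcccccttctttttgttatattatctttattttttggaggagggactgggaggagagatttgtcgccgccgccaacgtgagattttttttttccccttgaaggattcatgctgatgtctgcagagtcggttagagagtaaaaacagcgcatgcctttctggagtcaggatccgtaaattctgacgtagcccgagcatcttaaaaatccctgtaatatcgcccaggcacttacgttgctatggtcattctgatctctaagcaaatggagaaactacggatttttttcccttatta

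*Fgf2*, the FGF used in stem cell culture, was at 11.4 and 7.56 CPM in the controls and at 8.25 and 10.5 CPM in the *Cnot3*-cKO libraries. The groups overlapped and the log2 fold change was -0.01 (SE 0.23, adjusted p = 0.982), with a sign that depended on the scaling and on single libraries. The secreted *Fgf22*, *Fgf1*, *Fgf3* and *Fgf18* could also be tested. *Fgf22*, expressed between 2.65 and 4.54 CPM, had a log2 fold change of -0.52 (SE 0.27, adjusted p = 0.213). Its oppositely oriented neighbor *Rnf126* had 615 and 926 reads in the controls and 260 and 287 in the *Cnot3*-cKO libraries, against 183, 177, 79 and 76 for *Fgf22*. *Rnf126* had a log2 fold change of -0.80 (adjusted p = 0.0135). Reads of the 2 genes may not be separated. For *Fgf2*, the opposite *Nudt6* had 159, 114, 67 and 75 reads against 458, 318, 187 and 300. *Fgf1*, *Fgf3* and *Fgf18* rested on 4 to 32 reads per library and had log2 fold changes of 1.30, -0.29 and 1.17 with standard errors of 0.79, 0.59 and 0.72. None of these 3 estimates passed the test (adjusted p between 0.289 and 0.789).

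The other 9 paracrine ligands were too low to test, as were the 3 endocrine ligands. *Fgf4*, *Fgf5*, *Fgf6*, *Fgf7*, *Fgf8*, *Fgf10*, *Fgf16*, *Fgf17* and *Fgf20* had at most 24 reads in any library, the highest count being that of *Fgf8* in control replicate 2, with 4 reads in control replicate 1 and 0 in both *Cnot3*-cKO libraries. The endocrine hormones *Fgf15*, *Fgf21* and *Fgf23* had between 0 and 11 reads. Low ligand genes included neighbors in the genome: *Fgf3* (chr7:144838083-144844436), *Fgf4* (chr7:144847367-144865243) and *Fgf15* (chr7:144896531-144900953) lie side by side, as do *Fgf6* (chr6:127015586-127028187) and *Fgf23* (chr6:127072902-127081408), and *Fgf6* and *Fgf23* had at most 3 reads in any library. Of the 14 untested members, 5 had 3 reads or fewer in every library. A floor of 3 reads corresponds to 0.0745 and 0.0713 CPM in the controls and to 0.132 and 0.105 CPM in the *Cnot3*-cKO libraries, so that a low level of these ligands was not detectable at this depth.

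The intracellular FGFs, which are not secreted and bind voltage-gated sodium channels, were measured better but did not pass the test. *Fgf11* was at 3.43 and 5.23 CPM in the controls and at 6.58 and 6.53 CPM in the *Cnot3*-cKO libraries (log2 fold change 0.60, SE 0.26, adjusted p = 0.125). Without control replicate 2 it was 0.92 (adjusted p = 0.0215) and without control replicate 1 it was 0.31 (adjusted p = 0.522). *Fgf13* was at 11.0 and 9.77 CPM against 5.74 and 7.89 CPM (log2 fold change -0.61, SE 0.22, adjusted p = 0.067), and passed at 0.05 without control replicate 2 (-0.70) or *Cnot3*-cKO replicate 2 (-0.86), whereas without *Cnot3*-cKO replicate 1 it was -0.41 (adjusted p = 0.376). *Fgf12* lay between 1.54 and 3.63 CPM (log2 fold change 0.76, adjusted p = 0.151), and *Fgf14* was untested, with 0, 0, 2 and 10 reads. Groups did not overlap for the 3 tested genes, as for 59.1% of all tested genes, and the directions of the 3 differed.

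**Figure D3:**
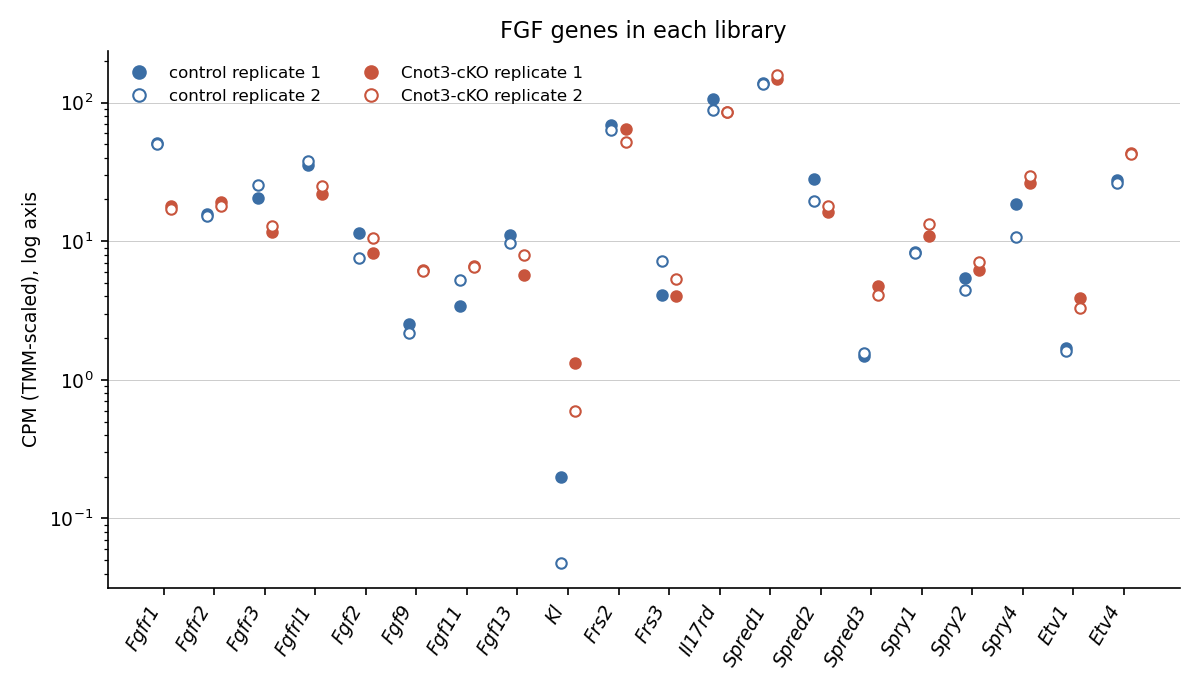
Level in each library, in CPM on a log axis, of the 20 FGF genes with an adjusted p under 0.05 or a mean of at least 5 CPM. Blue points are controls and red points *Cnot3*-cKO libraries, filled for replicate 1 and open for replicate 2; both *Cnot3*-cKO libraries lie below both controls for *Fgfr1*, *Fgfr3* and *Fgfrl1* and above them for *Fgf9*, *Spred3*, *Spry4*, *Etv1*, *Etv4* and *Kl*.

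Of the co-receptors and binding proteins, *Kl* was higher in both *Cnot3*-cKO libraries, at a very low level. *Kl* encodes klotho, the co-receptor for FGF23 (chr5:150952607-150993817, forward strand), and had 8 and 2 reads in the controls and 30 and 17 in the *Cnot3*-cKO libraries. These are 0.199 and 0.0475 CPM against 1.32 and 0.594 CPM, a log2 fold change of 2.92 (SE 0.84, adjusted p = 0.0265). *Kl* passed the expression filter only through its *Cnot3*-cKO libraries and had to differ, so its adjusted p cannot show a rise. Control replicate 2 was below the floor of 3 reads. Without *Cnot3*-cKO replicate 2 its log2 fold change was 3.40 and it was called, whereas without control replicate 2 (2.22, adjusted p = 0.138) or *Cnot3*-cKO replicate 1 (2.24, adjusted p = 0.203) it no longer passed at 0.05, and without control replicate 1 the estimate was 4.20. *Klb*, which encodes the beta-klotho co-receptor for endocrine FGFs, had 24 and 44 reads in the controls and 10 and 38 in the *Cnot3*-cKO libraries (log2 fold change 0.13, SE 0.60, adjusted p = 0.915). *Fgfbp3*, which encodes a secreted FGF carrier, had a log2 fold change of 1.24 (SE 0.50, adjusted p = 0.101), which was 2.07 without control replicate 2 (adjusted p = 0.0131) and 0.70 without control replicate 1 (adjusted p = 0.398). *Fgfbp1* had no read in any library.

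The adaptors that couple the receptors to RAS and ERK did not pass the test. *Frs2* was at 69.1 and 63.4 CPM in the controls and at 64.4 and 52.0 CPM in the *Cnot3*-cKO libraries (log2 fold change -0.19, SE 0.12, adjusted p = 0.313). *Frs3* was at 4.10 and 7.25 CPM against 4.02 and 5.38 CPM (log2 fold change -0.27, SE 0.30, adjusted p = 0.592). The groups overlapped for both genes.

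Of the 7 feedback inhibitors, *Spred3* and *Spry4* rose and the others did not pass the test. *Spred3*, a member of the SPRED family that restrains RAS-ERK signaling (chr7:29158829-29170411, reverse strand), was at 1.49 and 1.57 CPM in the controls and at 4.72 and 4.09 CPM in the *Cnot3*-cKO libraries, from 60, 66, 107 and 117 reads. The groups were well apart, with means of 1.53 ± 0.0559 and 4.40 ± 0.451 CPM (SD, n = 2 each), a 2.87-fold increase (log2 fold change 1.52, SE 0.30, adjusted p = 0.00333). In the same libraries the summed CPM of the 16 Sertoli cell genes rose 3.04-fold. The part of the cell make-up in the *Spred3* increase was not tested. *Spred3* overlaps the oppositely oriented *Ggn*, which had 17, 24, 15 and 22 reads and did not pass the test (adjusted p = 0.605). Its promoter window (chr7:29168598-29168897, reverse strand) is shown as that of the called inhibitor and held 3 GC boxes and no ETS core.
Spred3: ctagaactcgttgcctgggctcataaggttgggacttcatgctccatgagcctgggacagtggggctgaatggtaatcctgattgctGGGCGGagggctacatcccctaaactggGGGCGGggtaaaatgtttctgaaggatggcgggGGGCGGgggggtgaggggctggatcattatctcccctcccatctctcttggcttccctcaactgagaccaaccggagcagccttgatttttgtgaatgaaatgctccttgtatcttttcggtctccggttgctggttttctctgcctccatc

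*Spry4*, a Sprouty inhibitor of receptor tyrosine kinase signaling, was at 18.4 and 10.7 CPM in the controls and at 26.4 and 29.5 CPM in the *Cnot3*-cKO libraries. The groups did not overlap, although the 2 controls differed from each other, and the increase was 1.92-fold (log2 fold change 0.94, SE 0.21, adjusted p = 0.00807). It was called without control replicate 1 (log2 fold change 1.37) or without *Cnot3*-cKO replicate 1 (1.01), and had a log2 fold change of 0.59 without control replicate 2. Its relatives *Spry1* and *Spry2* were higher in both *Cnot3*-cKO libraries but did not pass the test. *Spry1* was at 8.29 and 8.20 CPM against 10.9 and 13.3 CPM (log2 fold change 0.55, SE 0.19, adjusted p = 0.0604), and *Spry2* at 5.44 and 4.47 CPM against 6.22 and 7.12 CPM (log2 fold change 0.43, SE 0.23, adjusted p = 0.222). No listed gene had the symbol *Spry3*, so it could not be analysed.

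*Spred1*, *Il17rd* and *Spred2*, the inhibitors with the highest CPM in the controls, did not pass the test. *Spred1* was at 139 and 135 CPM in the controls and at 148 and 158 CPM in the *Cnot3*-cKO libraries (log2 fold change 0.16, SE 0.09, adjusted p = 0.237). *Il17rd*, which encodes the ERK pathway inhibitor SEF, was at 106 and 87.9 CPM against 85.9 and 86.2 CPM (log2 fold change -0.17, SE 0.11, adjusted p = 0.295). Over the alternative settings *Il17rd* ranged from -0.31 to -0.05 on the log2 scale, and it passed at 0.05 in part of them. *Spred2* was at 28.3 and 19.6 CPM against 16.3 and 17.9 CPM, so that its log2 fold change of -0.48 (SE 0.18, adjusted p = 0.081) was opposite in sign to that of *Spred3*. Without control replicate 2 it was -0.74 (adjusted p = 3.26e-04) and without control replicate 1 it was -0.21 (adjusted p = 0.501). Per kilobase of exon, *Spred1* ranked first among the 42 members in both groups, with means of 20.2 and 22.5 RPKM, whereas *Spred3* was at 0.246 and 0.708 RPKM. By the same measure *Fgfr1* moved from rank 7 in the controls to rank 12 in the *Cnot3*-cKO libraries, and *Spry4* from rank 9 to rank 6.

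Both ETS factors rose. *Etv4*, an FGF-ERK target and close relative of *Etv5* (chr11:101769742-101785371, reverse strand), was at 27.7 and 26.2 CPM in the controls and at 43.4 and 42.6 CPM in the *Cnot3*-cKO libraries. The spread within each group was small, with means of 26.9 ± 1.09 and 43.0 ± 0.584 CPM (SD, n = 2 each), and the increase was 1.60-fold (log2 fold change 0.67, SE 0.12, adjusted p = 0.00197). *Etv1* (chr12:38779380-38870484, forward strand) was at 1.69 and 1.62 CPM against 3.88 and 3.32 CPM (log2 fold change 1.12, SE 0.31, adjusted p = 0.0215), and without *Cnot3*-cKO replicate 1 it no longer passed at 0.05 (0.99, adjusted p = 0.085). The groups did not overlap for either gene, as for 59.1% of all tested genes. By role and at an adjusted p under 0.05, 3 of 5 tested receptor genes fell, against 9.46% of all tested genes, and 2 of 2 ETS factors and 2 of 7 feedback inhibitors rose, against 11.1%. Counts over so few genes are a description.

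The wider pathway was examined through 3 lists. Of 14 genes that respond to ERK, 2 were called higher (14.3%, against 4.03% of all tested genes) and the median log2 fold change was 0.43. *Dusp6*, which encodes an ERK phosphatase induced by FGF signaling, was at 60.2 and 53.9 CPM in the controls and at 133 and 136 CPM in the *Cnot3*-cKO libraries (log2 fold change 1.24, SE 0.10, adjusted p = 6.15e-06). *Fos*, an immediate early transcription factor gene, was at 14.5 and 16.0 CPM against 32.9 and 48.3 CPM (log2 fold change 1.41, SE 0.17, adjusted p = 1.87e-04). *Etv5*, the ETS factor needed by spermatogonial stem cells, was at 98.9 and 78.6 CPM against 131 and 128 CPM (log2 fold change 0.54, SE 0.11, adjusted p = 0.00452). The *Cnot3*-cKO libraries were above the controls for each of these 3 genes, while groups did not overlap, in either direction, for 59.1% of all tested genes. At an adjusted p under 0.05, 4 of the 14 rose (28.6% against 11.1%) and 1 fell (7.14% against 9.46%). The one that fell was *Dusp9*, at 75.0 and 92.2 CPM in the controls and 49.1 and 56.9 CPM in the *Cnot3*-cKO libraries (log2 fold change -0.66, SE 0.12, adjusted p = 0.00263). Over the whole list, the *Cnot3*-cKO libraries were above the controls for 7 genes and below them for 4.

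Upstream of these targets, no gene of the other lists was called by edgeR or by DESeq2. Of 23 tested heparan sulfate genes, which encode the proteoglycans and enzymes that make the FGF co-factor, 2 rose (8.70% against 11.1% of all tested genes) and 7 fell (30.4% against 9.46%) at an adjusted p under 0.05, and 14 had an unadjusted p under 0.05 (60.9% against 32.8%). The median log2 fold change was -0.14. Without control replicate 1, a single gene of this list was called. Of 31 genes from adaptors through RAS and RAF to ERK, 4 rose (12.9%) and 7 fell (22.6%) at an adjusted p under 0.05, 17 had an unadjusted p under 0.05 (54.8%), and the median was -0.15. In the same libraries summed CPM of the Leydig cell genes went from 375 and 328 to 875 and 929, with *Insl3* at 0 throughout, and that of the macrophage genes from 269 and 177 to 593 and 484. Of the 11 spermatogonial stem cell genes, which include *Etv5*, 6 rose (54.5% against 11.1%) and 1 fell (9.09% against 9.46%) at an adjusted p under 0.05. The gene that fell was *Zbtb16*, at 436 and 364 CPM in the controls and 243 and 212 CPM in the *Cnot3*-cKO libraries (adjusted p = 1.93e-04). It had the highest CPM of the list in the controls. The summed CPM of the 11 genes was 935 and 804 in the controls and 881 and 896 in the *Cnot3*-cKO libraries, so that opposite changes were added together. The part of these lists and of the Sertoli cell markers in the ERK response values was not tested.

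**Figure D4:**
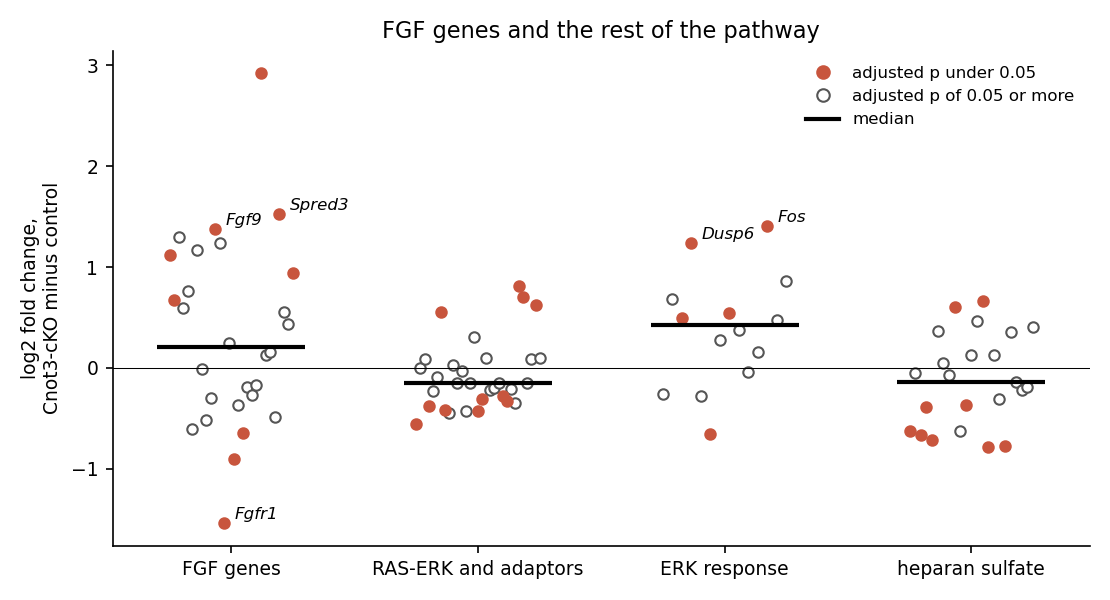
Log2 fold changes of *Cnot3*-cKO over control for the FGF genes and for the RAS-ERK, ERK response and heparan sulfate lists. Each point is a gene, filled at an adjusted p under 0.05. Thick lines mark the medians of 0.20 (0.16 without *Kl*), -0.15, 0.43 and -0.14. The labelled, called genes are *Fgfr1*, *Fgf9* and *Spred3* among the FGF genes and *Dusp6* and *Fos* among the ERK response genes.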

How the data were processed

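Total RNA of ID4-EGFP+ cells was sequenced with a stranded kit. The authors used STAR for alignment (mm10) and featureCounts for gene counts, and deposited whole-number counts that were not normalized. Strand and multi-mapping settings are not given in the sources used here. Members, lists and tests were chosen with earlier results of these data known. *Cnot3*-cKO was compared with control, without covariates, in edgeR 4.0.16 (R 4.3.3, limma 3.58.1) with TMM scaling, filterByExpr and the quasi-likelihood F test, with Benjamini-Hochberg adjustment over 23952 genes. The standard error was the absolute log2 fold change divided by the square root of F. CPM used TMM-scaled library sizes, and RPKM used the exon union of GENCODE M21. The fit was tested on simulated data. Members named with a value in every library were those called, with an adjusted p under 0.05, or with a mean of at least 5 CPM. Of the pathway lists, called genes, *Etv5* and *Dusp6* were named, and *Dusp9* as the ERK response gene that fell. Totals were 40957899 and 43378493 reads for the controls and 22192964 and 28019626 for the *Cnot3*-cKO libraries. Detection floors cover counting error only. Replicates differed by more than sampling noise. RefSeq promoter windows matched 33 of 42 members. Alternatives were DESeq2 1.42.0, other scalings and filters, a test against the fold limit, a replicate block, omission of each library and, chosen after the data were seen, thinning of each library to the smallest total.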

Additional observations from a re-analysis of the deposited data

How the results depend on the processing

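With 2 libraries in each group and smaller *Cnot3*-cKO libraries, members with few reads were measured with wide errors. *Fgfr1* ranged from -1.59 to -1.47 on the log2 scale over the alternatives, *Fgf9* from 1.08 to 1.47 and *Spred3* from 1.11 to 1.62. Tested against a fold change of 2 (glmTreat), 0 FGF genes were called higher, 0 were called lower and 0 ERK response genes were called, with an adjusted p of 0.0144 for *Fgfr1*, 0.593 for *Fgf9* and 0.440 for *Spred3*; *Cnot3* stayed at -1.48 with an adjusted p of 0.0346. The same test starts from the fold limit itself and is stricter by construction. At an adjusted p under 0.05 with no fold limit, 6 FGF genes were higher (5 without *Kl*) and 3 lower. By the same measure 5 ERK response, 9 heparan sulfate and 11 RAS-ERK genes passed. Leaving out each library in turn gave 1 to 2 FGF genes called lower, 2 to 3 called higher, 0 to 1 heparan sulfate genes, and a median of the FGF genes from 0.20 to 0.36. The count of 2 lower and the heparan sulfate gene came without control replicate 1, and the median of 0.36 without *Cnot3*-cKO replicate 1.

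Signs turned for 3 members near 0. *Fgf2* was at 0.021 with upper quartile scaling, 0.052 with library size only, 0.018 at a mean count of at least 50, 0.0091 with the replicate block, 0.30 without control replicate 1 and 0.14 without *Cnot3*-cKO replicate 1, in a range of -0.29 to 0.30 over the omitted libraries. *Frs3* was at 0.19 without control replicate 2 (range -0.64 to 0.19), and *Klb* at -0.23 without control replicate 1 and -0.90 without *Cnot3*-cKO replicate 2 (range -0.90 to 0.68). The cause was not tested. *Kl* was called with no filter (2.89, adjusted p = 0.0026), and *Spry4* with library size only (1.004).

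Replicate numbers were shared by the groups but mark no common animal or batch in the labels. Deviations of same-numbered libraries correlated at 0.0776 over 16437 genes. With the replicate block, 2 FGF genes were called higher and 1 lower, as without it.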
